A study of Caenorhabditis elegans with 12 samples.

Results

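The change in microRNAs over early adult life was measured by comparing day 7 with day 1 of adulthood, ages that bracket most of the egg-laying period, in wild-type *Caenorhabditis elegans*. These are 6 of the 12 small RNA libraries of a time course, 3 at each age, taken by their labelled age and not by any measured value. Every worm was of the strain N2, the wild-type laboratory strain, with no transgene, mutation or treatment named in the labels. Both groups are pools of whole worms raised from synchronized eggs, moved to fresh plates every other day over these ages to keep them apart from their progeny, cleared of dead, burst or internally hatched animals, and handpicked into TRIzol. The table named 368 mature microRNAs from 218 hairpins. Of these, 245 had enough counts to be tested, as judged over the 12 libraries of all ages. The other 123 did not, and 42 of the 123 had no count in any of the 6 libraries.

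A microRNA gene is transcribed into a hairpin, which the Drosha and Dicer enzymes cut into a short duplex of a 5p and a 3p arm. An Argonaute protein, chiefly ALG-1 or ALG-2 in the worm, keeps 1 arm as the guide and the other arm is usually degraded. The guide finds messenger RNAs through its seed, bases 2 to 8, and lowers their translation or stability, so microRNAs that share a seed form a family. In the worm, the lin-4 and let-7 families time larval development, and the miR-35 family acts in the germline and the embryo. The arms of *mir-83* are the ones the study turned on. Its hairpin spans 7841631 to 7841728 of chromosome IV (WBcel235, plus strand), outside annotated protein-coding genes. The sense strand of the 22-base oligo made to mimic its 3p arm is shown because its seed, in capitals, is the one shared with mammalian miR-29.
miR-83-3p mimic: tAGCACCAtataaattcagtaa

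The libraries held 7319669 to 7896434 microRNA counts at day 7 and 5782871 to 16863518 at day 1. Over the log2 levels of the 245 microRNAs, Pearson's r was 0.994 to 0.997 between day 7 libraries, 0.985 to 0.997 between day 1 libraries and 0.946 to 0.959 between ages, as a description. The first principal component, with 80.6% of the variance, separated the ages. The second, with 12.6%, set day 1 replicate 2, which was also the smallest library, at -8.05 against 4.41 and 3.80 for the other day 1 libraries. Where leaving out this library changed the edgeR call of a microRNA named below, or moved a value discussed as close to a call, the value without it is given as well. Levels are given as CPM, each count put on a common library size after TMM, the trimmed-mean scaling of edgeR. Each fold change is day 7 over day 1, with 3 libraries a side.

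MicroRNAs moved in both directions over the first week of adulthood. In the quasi-likelihood test of edgeR, with p adjusted by Benjamini-Hochberg and a threshold of 0.05, 96 of the 245 tested microRNAs differed between day 7 and day 1 (39.2%), 52 of them higher (21.2%) and 44 lower (18.0%) at day 7. In 134 microRNAs (54.7%) the libraries of the 2 ages did not overlap, with 71 above (29.0%) and 63 below (25.7%), and 95 of the 96 called microRNAs were among them. The median log2 fold change over the 245 was -0.01, and the fitted values ran from -5.22 to 5.33, the upper end being a microRNA with no count at day 1 whose value depends on the prior count. Without day 1 replicate 2, 100 microRNAs were called, 47 higher and 53 lower, and 88 of the 96 were among them. Scaling by total counts in place of TMM moved the median to -0.13 and called 97, 49 higher and 48 lower. Rises and falls were found at each level, with 20 higher and 11 lower of 85 microRNAs under 10 CPM and 8 higher and 10 lower of 46 above 1000 CPM. The 3p arms had 25 higher and 18 lower of 113, and the 5p arms 17 higher and 22 lower of 103.

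**Figure D1:**
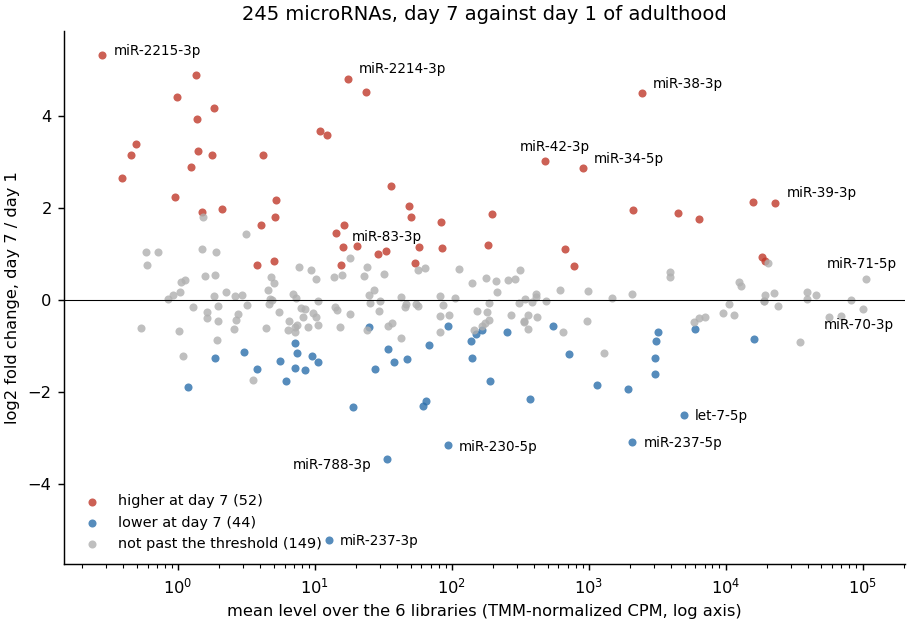
Log2 fold change of day 7 over day 1 (y axis) against the mean level over the 6 libraries in TMM-normalized CPM (x axis, log scale), 1 point per microRNA tested, coloured by the edgeR call. Calls spanned the whole range of levels, with miR-38-3p at 4.50 among abundant microRNAs, and miR-237-3p lowest at -5.22. The uppermost point, miR-2215-3p, had no count at day 1, so its height depends on the prior count.

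The miR-35 family rose together at its 3p arms. These microRNAs, from *mir-35* to *mir-42*, belong to the germline and the embryo and are needed for embryonic development, and their shared seed lies on the 3p arm. Of 16 arms, 15 were tested, and 9 were higher and 0 lower, with a median log2 fold change of 1.76 against -0.01 over all microRNAs tested. Over all of those, 21.2% were higher and 18.0% lower. All 8 of the 3p arms were higher (1.76 to 4.50), against 1 of the 7 tested 5p arms (log2 fold changes -0.60 to 1.63, median 0.04). The family took 9.38%, 8.18% and 10.3% of all counts in day 7 worms, against 2.53%, 1.98% and 2.50% in day 1 worms. Every day 7 library lay above every day 1 library, with a mean of 9.28% ± 1.05 at day 7 and 2.34% ± 0.306 at day 1 (SD, n = 3 each). The two-sided exact permutation test gave p = 0.1, its lower limit for 3 against 3. In whole worms, a change in how many germline or embryonic cells a pool holds and a change of RNA per cell cannot be told apart, here and for every microRNA below.

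miR-38-3p changed most within the family. It stood at 4829, 3747 and 5380.2 CPM in day 7 worms, against 185, 225 and 207 CPM in day 1 worms. The day 7 values were all far above those of day 1, which lay close together, and the log2 fold change was 4.50 (SE 0.24, adjusted p = 4.7e-09, edgeR). Next came miR-42-3p, at 830.4, 745 and 996 CPM in day 7 worms, against 91.6, 103 and 122 CPM in day 1 worms. Its groups were likewise well apart, with a log2 fold change of 3.02 (SE 0.21, adjusted p = 1.2e-07, edgeR). The most abundant member, miR-39-3p, reached 42521, 27717 and 42299 CPM in day 7 worms, against 7035, 10859.9 and 7921 CPM in day 1 worms. Day 7 replicate 2 was the lowest of its age and still lay above every day 1 library (log2 fold change 2.12, SE 0.28, adjusted p = 3.2e-05, edgeR). miR-39-3p was the 9th most abundant microRNA at day 7 and the 24th at day 1. miR-35-3p, which gives the family its name, had 27449, 22073 and 27665 CPM in day 7 worms, against 5242, 5568 and 6667 CPM in day 1 worms. Its ages did not overlap either (log2 fold change 2.14, SE 0.20, adjusted p = 1.7e-06, edgeR). The scarcer miR-41-3p was at 46.9, 66.7 and 68.7 CPM in day 7 worms, against 11.7, 7.23 and 13.2 CPM in day 1 worms, with no overlap and a log2 fold change of 2.48 (SE 0.28, adjusted p = 5.9e-06, edgeR). miR-36-3p, miR-37-3p and miR-40-3p had log2 fold changes of 1.90, 1.97 and 1.76, each with every day 7 library above day 1.

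The 5p arms of the same hairpins had 1 call among 7, and the ratio of the arms is tested for each hairpin further on. miR-41-5p stood at 544, 378 and 525 CPM in day 7 worms, against 425, 495 and 555 CPM in day 1 worms, and its ages overlapped (log2 fold change -0.03, SE 0.54, adjusted p = 0.97, edgeR). miR-36-5p was at 12.1, 11.7 and 12.5 CPM in day 7 worms, against 18.1, 20.3 and 16.7 CPM in day 1 worms, with all 3 day 7 libraries below day 1 but a log2 fold change of -0.60 that did not pass the test (SE 0.37, adjusted p = 0.22, edgeR). Only miR-42-5p among the tested 5p arms was called higher, with 23.3, 20.4 and 29.9 CPM in day 7 worms, against 7.43, 9.38 and 7.23 CPM in day 1 worms and a log2 fold change of 1.63 (SE 0.40, adjusted p = 0.0044, edgeR). miR-35-5p, miR-37-5p, miR-39-5p and miR-40-5p had log2 fold changes of 0.12, 0.04, 0.48 and -0.13, and none passed the test. Of these, miR-39-5p still lay higher in every day 7 library, at 162, 213 and 243 CPM against 142, 157 and 145 CPM at day 1. miR-38-5p had too few counts to be tested.

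**Figure D2:**
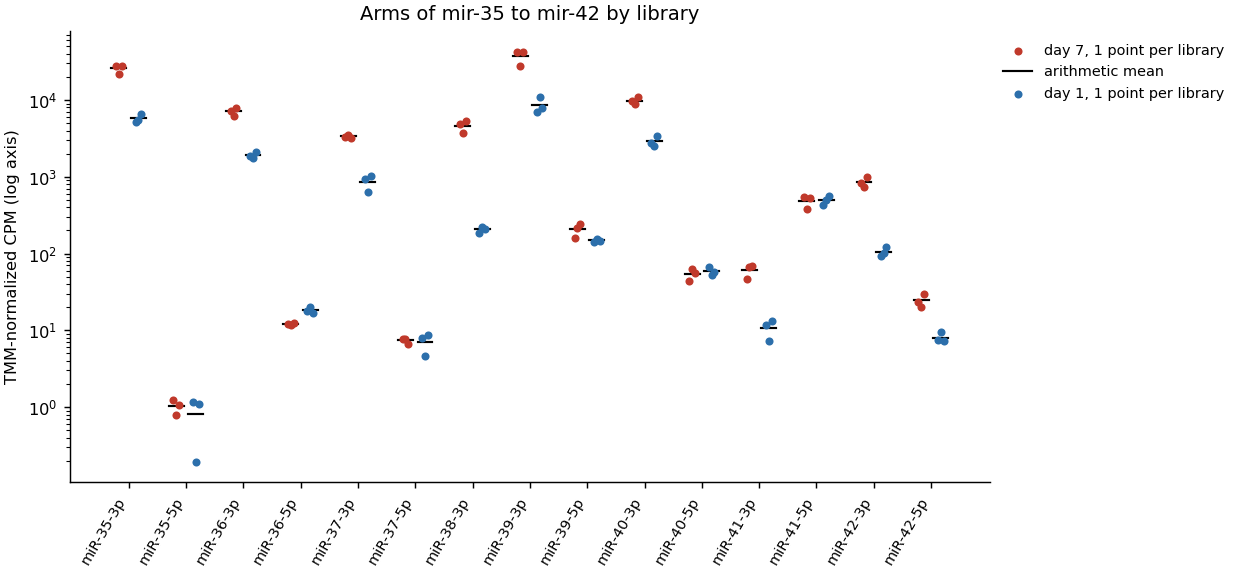
TMM-normalized CPM (y axis, log scale) of each tested arm of *mir-35* to *mir-42* (x axis), with day 7 to the left of day 1, 1 point per library and a bar at the arithmetic mean. The day 7 points of all 8 of the 3p arms lie above their day 1 points, whereas miR-41-5p, miR-40-5p, miR-37-5p and miR-35-5p overlap. Those of miR-42-5p and miR-39-5p lie above and those of miR-36-5p below.

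The genes of this family sit in a pair of clusters on chromosome II, and their neighbours moved too. The 7 hairpins from *mir-35* to *mir-41* lie between 11537608 and 11538404 on the plus strand (WBcel235), and 7 of the 13 tested arms there were higher. *mir-42*, *mir-43* and *mir-44* lie between 11889811 and 11890118, and 4 of the 5 tested arms there were higher. miR-43-3p, whose seed belongs to the miR-2 family and not to the miR-35 family, was at 7.40, 8.44 and 9.76 CPM in day 7 worms, against 1.41, 2.35 and 2.06 CPM in day 1 worms. Its groups did not overlap and its log2 fold change was 2.17 (SE 0.35, adjusted p = 1.7e-04, edgeR). miR-44-5p was at 70.96, 60.1 and 103 CPM in day 7 worms, against 17.7, 30.1 and 19.8 CPM in day 1 worms, again without overlap (log2 fold change 1.80, SE 0.30, adjusted p = 2.4e-04, edgeR). The exception was miR-44-3p, at 20249.9, 16717 and 20113 CPM in day 7 worms, against 13189, 26834 and 17559 CPM in day 1 worms, where the ages overlapped and the log2 fold change was -0.01 (SE 0.28, adjusted p = 0.97, edgeR). Its counts were the same as those of miR-45-3p in every library, so which of the 2 genes they come from is uncertain. Over chromosome II as a whole, 19 of 50 tested microRNAs were higher and 1 lower, against 21.2% higher and 18.0% lower over all microRNAs. Of the 19, 11 lie in these clusters, and outside them 8 of 32 were higher. On chromosome V, 1 of 24 was higher and 8 were lower, and all 8 came from the clusters of *mir-357* and *mir-358*, *mir-61* and *mir-250*, and *mir-48* and *mir-241*.

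Several of the heterochronic microRNAs, which time the larval stages, were lower in day 7 worms. lin-4-5p, which represses *lin-14* and *lin-28* so that larvae leave the early stages, stood at 1722, 2002 and 1667 CPM in day 7 worms, against 3809, 4072 and 5141 CPM in day 1 worms. All 3 day 7 libraries were below day 1 (log2 fold change -1.27, SE 0.24, adjusted p = 7.1e-04, edgeR). Its homologue miR-237-5p was at 519, 386 and 412 CPM in day 7 worms, against 3155, 5025 and 3003 CPM in day 1 worms. Day 1 replicate 2 was the highest, and the day 7 libraries were all far below the lowest day 1 library (log2 fold change -3.09, SE 0.31, adjusted p = 3.0e-06, edgeR). The other arm, miR-237-3p, was at 0.685, 0.342 and 0.923 CPM in day 7 worms, against 21.1, 35.6 and 16.9 CPM in day 1 worms, and no microRNA tested fell further (log2 fold change -5.22, SE 0.41, adjusted p = 3.8e-07, edgeR). The 3 tested arms of the lin-4 family were all lower, against 18.0% of all microRNAs tested. Together they took 0.233% ± 0.0283 of the counts in day 7 worms and 0.888% ± 0.0702 in day 1 worms (SD, n = 3 each).

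let-7-5p, which represses *lin-41* at the passage from larva to adult, was at 1672, 1542 and 1217 CPM in day 7 worms, against 7473, 8801 and 8799.9 CPM in day 1 worms. The ages were well apart (log2 fold change -2.50, SE 0.29, adjusted p = 1.0e-05, edgeR). It took 0.153% ± 0.0239 of the counts in day 7 worms and 0.924% ± 0.126 in day 1 worms, ranking 43rd at day 7 and 25th at day 1. Its relative miR-241-5p, which acts with miR-48 and miR-84 on *hbl-1* in the larva, was at 915, 675 and 795 CPM in day 7 worms, against 1946, 4653 and 2538 CPM in day 1 worms. Day 1 replicate 2 was the highest of its age, and all day 7 libraries were lower (log2 fold change -1.94, SE 0.37, adjusted p = 7.4e-04, edgeR). Without day 1 replicate 2 the log2 fold change of miR-241-5p was -1.67, and that of miR-237-5p was -2.99, both still past the test. The other arm of *mir-241* moved likewise, with a log2 fold change of -1.77 for miR-241-3p (SE 0.31, adjusted p = 3.9e-04, edgeR).

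Other let-7 relatives were not called lower at their 5p arms. miR-48-5p, by far the most abundant of them, was at 23212, 25611 and 19602 CPM in day 7 worms, against 27261, 17524 and 30364 CPM in day 1 worms, and the ages overlapped (log2 fold change -0.14, SE 0.22, adjusted p = 0.69, edgeR). Without day 1 replicate 2 its log2 fold change was -0.51 (edgeR adjusted p = 0.059). *mir-48* and *mir-241* are neighbours on the minus strand of chromosome V, between 14364412 and 14366283, so 2 of the 4 tested arms of this cluster were lower and both came from *mir-241*. miR-84-5p was at 4389, 5249 and 4140.2 CPM in day 7 worms, against 3595, 2092 and 4048 CPM in day 1 worms, with every day 7 library above day 1 but no call (log2 fold change 0.50, SE 0.26, adjusted p = 0.14, edgeR), and its log2 fold change was 0.09 without day 1 replicate 2. miR-84-3p passed the test in the same direction at 69.3, 70.5 and 65.96 CPM in day 7 worms, against 34.3, 52.8 and 30.6 CPM in day 1 worms (log2 fold change 0.81, SE 0.26, adjusted p = 0.022, edgeR), a call that was lost when day 7 replicate 2, day 1 replicate 1 or day 1 replicate 3 was left out (0.56 to 0.66, edgeR adjusted p from 0.067 to 0.10). miR-793, miR-794-5p and miR-795-5p had log2 fold changes of -0.43, -0.24 and -0.33 and did not pass, although miR-793 was called without day 1 replicate 2 (-0.68, edgeR adjusted p = 0.017), whereas miR-795-3p was lower (log2 fold change -1.15, SE 0.32, adjusted p = 0.011, edgeR). Of the 12 tested arms of the let-7 family, 1 was higher and 4 were lower, against 39.2% called in either direction over all microRNAs, and the median was -0.28.

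**Figure D3:**
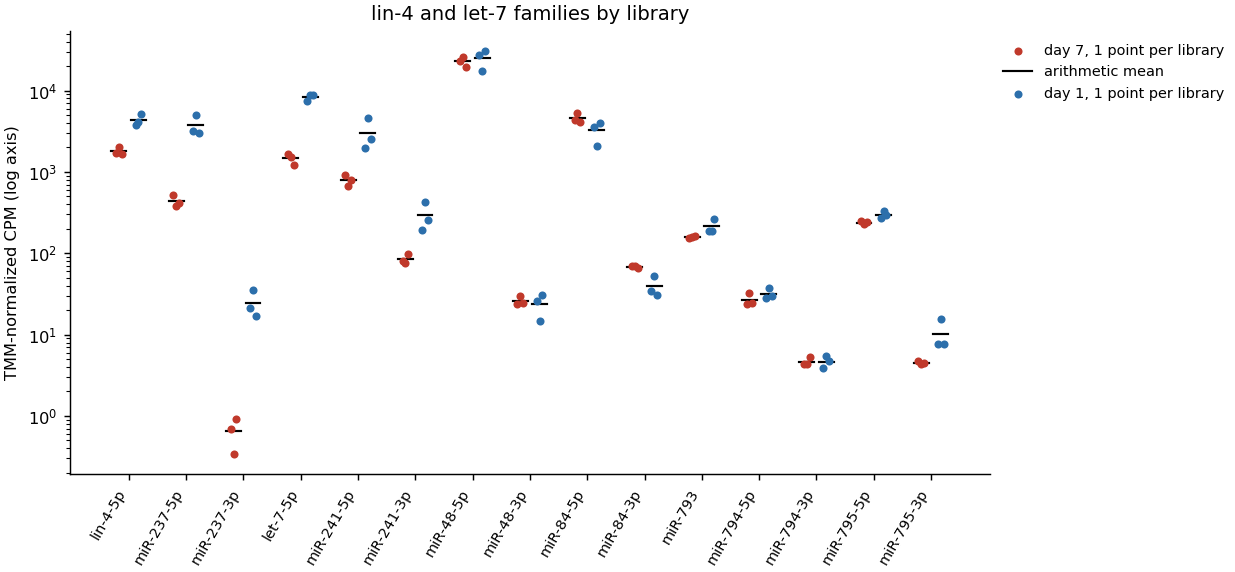
TMM-normalized CPM (y axis, log scale) of the arms of the lin-4 and let-7 families (x axis), with day 7 to the left of day 1, 1 point per library and a bar at the arithmetic mean. lin-4-5p, both arms of *mir-237*, let-7-5p and both arms of *mir-241* lie lower at day 7 in every library, whereas both arms of *mir-48* overlap and both arms of *mir-84* lie higher.

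Beside these families, several scarce or little studied microRNAs fell. miR-788-3p was at 4.52, 6.16 and 6.07 CPM in day 7 worms, against 51.99, 69.6 and 62.8 CPM in day 1 worms, the ages far apart (log2 fold change -3.45, SE 0.36, adjusted p = 3.0e-06, edgeR). miR-230-5p was at 20.3, 14.1 and 22.3 CPM in day 7 worms, against 104, 250.1 and 154 CPM in day 1 worms. Day 1 replicate 2 was the highest, and no day 7 library came near day 1 (log2 fold change -3.16, SE 0.34, adjusted p = 5.0e-06, edgeR). Its other arm, miR-230-3p, fell by 2.16 on the log2 scale (SE 0.35, adjusted p = 1.7e-04, edgeR). *mir-791*, which lies next to *mir-230* on chromosome X, had no arm called by edgeR. miR-235-3p, the worm homologue of miR-92 and a brake on development in starved larvae, was at 1589, 1400.3 and 1472 CPM in day 7 worms, against 3985, 5233 and 4488 CPM in day 1 worms. It did not overlap between ages (log2 fold change -1.62, SE 0.20, adjusted p = 1.8e-05, edgeR). miR-59-3p was at 535, 452 and 516 CPM in day 7 worms, against 1442, 2388 and 1604 CPM in day 1 worms, also without overlap (log2 fold change -1.85, SE 0.22, adjusted p = 1.4e-05, edgeR). miR-357-3p, miR-358-3p, miR-799 and miR-1817 were all lower as well, with log2 fold changes of -2.32, -1.77, -2.33 and -2.21. *mir-357* and *mir-358* are neighbours on chromosome V, between 8580542 and 8580967 on the minus strand. Their 3 tested arms were all lower, against 18.0% of all microRNAs tested. miR-4811-3p, at under 1 CPM in each day 7 library, completes the 15 largest falls (log2 fold change -1.89, SE 0.57, adjusted p = 0.016, edgeR), and this value moved to -2.91 without day 7 replicate 2. Its call ended without day 7 replicate 1 (-1.65, edgeR adjusted p = 0.068).

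Most of the largest rises were of microRNAs with few counts at day 1. miR-2214-3p, from a hairpin inside the gene B0361.11 on chromosome III, was at 38.2, 27.1 and 35.4 CPM in day 7 worms, against 1.15, 1.56 and 1.00 CPM in day 1 worms. Its groups were far apart (log2 fold change 4.82, SE 0.73, adjusted p = 1.1e-04, edgeR), and its other arm, miR-2214-5p, rose as well (log2 fold change 3.59, SE 0.79, adjusted p = 0.0023, edgeR). miR-1832a, inside *rsp-8*, a gene of the SR family of splicing factors, was at 43.4, 29.3 and 62.4 CPM in day 7 worms, against 1.41, 3.52 and 1.48 CPM in day 1 worms, with no overlap (log2 fold change 4.53, SE 0.44, adjusted p = 2.5e-06, edgeR). miR-796 was at 18.1, 14.6 and 27.4 CPM in day 7 worms, against 1.28, 1.76 and 1.69 CPM in day 1 worms, likewise apart (log2 fold change 3.68, SE 0.33, adjusted p = 1.4e-06, edgeR). miR-1823, miR-5552-3p, miR-5546-3p, miR-2208a-5p and miR-5594-3p also rose, with log2 fold changes of 4.19, 3.95, 3.24, 3.15 and 3.15, each with under 1 CPM and at most 16 counts in any day 1 library, so that these sizes rest on few counts.

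For 5 others, the day 1 libraries held 0 to 3 counts in all, so that their fitted fold changes depend on the prior count and are not read as sizes. miR-2215-3p had 5, 3 and 5 counts in the day 7 libraries, against 0 in each day 1 library. Set against 3 counts over the day 1 group, it was 7.27-fold higher, a value that leaves out the counting error at day 7. miR-1832b-3p had 25, 14 and 22 counts in day 7 worms, against 0, 0 and 3 in day 1 worms, a ratio of 34.1 (95% counting interval 11.1 to 170.1, exact). miR-5593-5p had 15, 9 and 20, against 2, 0 and 1, a ratio of 24.6 (7.89 to 123.9). Those of miR-2220-3p were 5, 9 and 8, against 2, 0 and 1 (12.3, 3.70 to 64.2). miR-2207-5p had 4, 7 and 8, against 1, 1 and 1 (10.6, 3.13 to 56.1), and lost its call without day 1 replicate 3 (edgeR adjusted p = 0.063). The intervals cover counting error only, since the reads carried no molecular identifiers. All 5 passed the test, and every day 7 library lay above day 1. They met the filter on counts only through libraries of ages other than day 1. Neither the calls nor the lack of overlap is therefore taken as support for a rise.

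MicroRNAs with known effects on lifespan or stress survival moved in both directions. Of 23 tested arms from the 13 genes listed, 8 were higher and 8 lower, with a median of 0.46, against 21.2% higher and 18.0% lower over all microRNAs tested. miR-34-5p, whose mammalian homologue acts in the response to DNA damage, was at 1513, 1827 and 1438 CPM in day 7 worms, against 224, 162 and 267 CPM in day 1 worms. No day 1 library came near day 7 (log2 fold change 2.87, SE 0.29, adjusted p = 3.0e-06, edgeR). miR-34-3p also rose, with 18.6, 21.8 and 22.7 CPM in day 7 worms, against 6.79, 5.28 and 10.5 CPM in day 1 worms (log2 fold change 1.46, SE 0.26, adjusted p = 4.3e-04, edgeR). miR-239a-5p was at 68.9, 85.1 and 81.1 CPM in day 7 worms, against 18.2, 15.05 and 23.00 CPM in day 1 worms, and both it (log2 fold change 2.06, SE 0.40, adjusted p = 8.3e-04, edgeR) and miR-239a-3p (log2 fold change 1.71, SE 0.23, adjusted p = 3.6e-05, edgeR) rose without overlap. miR-238-3p, of the same family and much more abundant, was at 24851, 23369 and 24632 CPM in day 7 worms, against 10197, 12492 and 15309.8 CPM in day 1 worms. It too was higher in every day 7 library (log2 fold change 0.94, SE 0.19, adjusted p = 0.0014, edgeR). miR-238-5p did not pass the test. Neither did miR-239b-5p, which lay higher in every day 7 library and was called by DESeq2 (log2 fold change 1.48, adjusted p = 0.032) and with only day 7 and day 1 in the fit (1.39, edgeR adjusted p = 0.0042). Of the 5 tested arms of this family, 3 were higher and 0 lower, with a median of 1.44.

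Both arms of *mir-83* were higher in day 7 worms, the 3p arm closer to the threshold than the 5p arm. miR-83-3p was at 103, 160.3 and 87.6 CPM in day 7 worms, against 58.3, 23.8 and 78.2 CPM in day 1 worms. Every day 7 library lay above every day 1 library, and day 1 replicate 2 and day 7 replicate 2 were the farthest apart (log2 fold change 1.12, SE 0.38, adjusted p = 0.029, edgeR). Scaling by total counts ended the call (log2 fold change 0.97, edgeR adjusted p = 0.10), as did summing the lines of microRNAs listed more than once (0.98, edgeR adjusted p = 0.072). Leaving out any 1 of the 6 libraries but day 1 replicate 3 ended it too, with values down to 0.66 without day 7 replicate 2 (edgeR adjusted p = 0.29) and 0.62 without day 1 replicate 2 (0.18). miR-83-5p was at 78.4, 89.3 and 68.9 CPM in day 7 worms, against 39.6, 35.8 and 30.8 CPM in day 1 worms, with less spread within each age and no overlap (log2 fold change 1.16, SE 0.28, adjusted p = 0.0041, edgeR). Its call ended when day 7 replicate 2 (0.91) or day 1 replicate 3 (0.94) was left out, at an edgeR adjusted p of 0.055 and 0.053. *mir-49*, the other worm relative of miR-29, had log2 fold changes of 0.13 for its 3p arm and -0.22 for its 5p arm, with overlap and no call.

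miR-71-5p, which acts in neurons to extend lifespan, was the most abundant microRNA at day 7. It stood at 126952, 121236 and 121456 CPM in day 7 worms, against 62199.7, 127399.7 and 79316 CPM in day 1 worms. Day 1 replicate 2 reached the level of day 7 in CPM, so the ages overlapped on this scale, and the log2 fold change of 0.46 did not pass (SE 0.32, adjusted p = 0.28, edgeR). As a share of all counts, without TMM, miR-71-5p was higher in every day 7 library, at 12.3%, 13.5% and 12.6% against 8.36%, 11.3% and 8.92%. It was not called under any alternative. The scarcer miR-71-3p was lower (log2 fold change -0.57, SE 0.21, adjusted p = 0.048, edgeR), a call that ended with RLE size factors, with total-count scaling and under 6 other settings (edgeR adjusted p from 0.056 to 0.15). miR-228-5p, the glial microRNA, was at 11814, 9719 and 13101 CPM in day 7 worms, against 14951, 27400.5 and 19852 CPM in day 1 worms. All day 7 libraries were lower (log2 fold change -0.84, SE 0.30, adjusted p = 0.04, edgeR), a call that ended when day 7 replicate 1 or 2 was left out (edgeR adjusted p = 0.058 and 0.055). miR-246-5p was lower (log2 fold change -1.49, SE 0.29, adjusted p = 9.1e-04, edgeR), while miR-246-3p had every day 7 library above day 1 and no call (log2 fold change 0.61, SE 0.36, adjusted p = 0.19, edgeR). miR-80-5p was lower, at 473, 453 and 401 CPM in day 7 worms, against 723, 1691 and 578 CPM in day 1 worms (log2 fold change -1.17, SE 0.38, adjusted p = 0.023, edgeR). Day 1 replicate 2 was far above the rest, and without it the log2 fold change was -0.74, at the threshold (edgeR adjusted p = 0.0497).

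**Figure D4:**
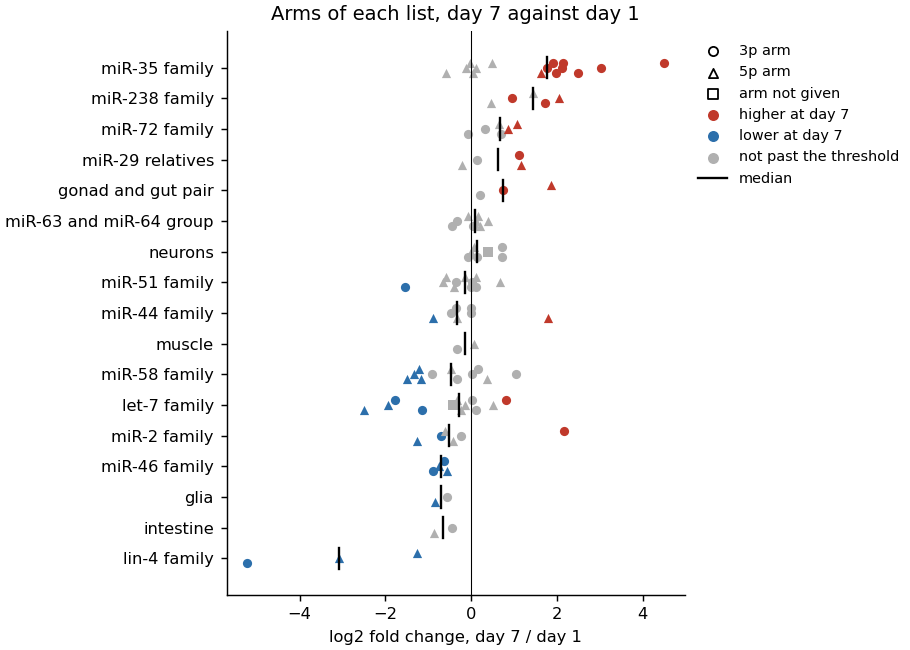
Log2 fold change of day 7 over day 1 (x axis) of every tested arm in each list shown (rows, a part of the 27 lists), with circles for 3p arms, triangles for 5p arms, colour for the edgeR call and a bar at the median. The lists shown run from the miR-35 family, with a median of 1.76, to the lin-4 family, with a median of -3.09. The miR-63 and miR-64 group and the lists of neurons, muscle and intestine have no arm called by edgeR.

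The miR-51 family and the miR-63 and miR-64 group, both abundant, had few calls, against 39.2% called over all microRNAs tested. The miR-51 family, which is widely expressed and needed in the embryo, took 14.9% of the counts in day 7 worms and 16.8% in day 1 worms, and of its 11 tested arms 0 were higher and 1 was lower. That arm was miR-51-3p, at 3.70, 6.27 and 3.30 CPM in day 7 worms, against 19.1, 5.08 and 13.7 CPM in day 1 worms, the sole called microRNA whose ages overlapped (log2 fold change -1.53, SE 0.42, adjusted p = 0.011, edgeR). That call ended without day 7 replicate 1 (edgeR adjusted p = 0.058). Uncalled, miR-53-5p and miR-54-5p had an unadjusted edgeR p below 0.05. miR-54-5p was called lower under 4 alternatives (-0.77 to -0.88, edgeR adjusted p from 0.029 to 0.044), and miR-56-3p without day 1 replicate 1 (-0.64, edgeR adjusted p = 0.031). Without TMM, the family's 3p arms took 9.08%, 9.44% and 9.91% of day 7 counts, against 11.3%, 11.6% and 11.2% at day 1. Its 5p arms took a mean of 5.47% and 5.45%. The miR-63 and miR-64 group had 0 calls in edgeR among 8 tested arms, with log2 fold changes from -0.45 to 0.39. miR-66-5p was the 1 arm with an unadjusted p below 0.05 and was called by DESeq2 (log2 fold change 0.41, adjusted p = 0.014), but its log2 fold change was 0.14 without day 1 replicate 2 (edgeR adjusted p = 0.53).

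In the miR-58 family, the relatives of the fly microRNA bantam, calls were on the 5p arms. The family took 21.8% of the counts, without TMM, in day 7 worms and 26.4% in day 1 worms. Nearly all of these counts were of 3p arms, at 21.6%, 22.3% and 21.0% in day 7 libraries against 25.6%, 26.1% and 26.9% at day 1. The 5p arms held a mean of 0.0925% at day 7 and 0.164% at day 1. None of its 5 tested 3p arms was called by edgeR, and 1 of them, miR-81-3p, had an unadjusted p below 0.05. miR-80-3p was at 83350.4, 81301 and 81517 CPM in day 7 worms, against 81381, 50014 and 113173 CPM in day 1 worms, and miR-82-3p at 65073, 54797 and 63271 CPM in day 7 worms, against 50486, 116699 and 64203 CPM in day 1 worms. Both overlapped between ages in CPM, and day 1 replicate 2 was the lowest day 1 library for miR-80-3p and the highest for miR-82-3p. As a share of all counts, without TMM, miR-82-3p was lower in every day 7 library, at 6.31%, 6.09% and 6.55% against 6.79%, 10.3% and 7.22%. miR-81-3p, at 26747, 21025 and 24817 CPM in day 7 worms, against 28037, 77661 and 31180.1 CPM in day 1 worms, had all day 7 libraries below day 1 and narrowly missed the threshold (log2 fold change -0.92, SE 0.35, adjusted p = 0.053, edgeR). It passed with total-count scaling, in DESeq2 and under 4 other settings (adjusted p from 0.0082 to 0.041, edgeR or DESeq2), but without day 1 replicate 2, the highest library, its log2 fold change was -0.47 (edgeR adjusted p = 0.090). Of the 6 tested 5p arms, 4 were lower, against 18.0% of all microRNAs tested. They were miR-80-5p, described above, and miR-81-5p, miR-1834-5p and miR-82-5p, whose log2 fold changes were -1.51, -1.32 and -1.22. Leaving out day 7 replicate 1 ended the calls of miR-81-5p, miR-1834-5p and miR-82-5p (edgeR adjusted p = 0.081, 0.074 and 0.063), and that of miR-81-5p was lost without day 7 replicate 3 or day 1 replicate 1 too (0.058 and 0.074).

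Smaller families showed both directions, against 21.2% higher and 18.0% lower over all microRNAs tested. miR-46-3p, miR-46-5p, miR-47-3p and miR-47-5p, the 4 tested arms of the miR-46 family, were all lower (log2 fold changes -0.89, -0.75, -0.64 and -0.56), and each of the 4 calls was lost without day 7 replicate 1 (edgeR adjusted p from 0.052 to 0.15). In the miR-72 family, miR-72-5p was at 23422, 26504 and 24216 CPM in day 7 worms, against 12394, 12882 and 15977 CPM in day 1 worms. It was higher in every day 7 library (log2 fold change 0.85, SE 0.27, adjusted p = 0.02, edgeR), and the call was lost without any 1 of day 7 replicate 2, day 7 replicate 3, day 1 replicate 1 and day 1 replicate 2 (0.63 to 0.75, edgeR adjusted p from 0.056 to 0.083). miR-73-5p was higher too (log2 fold change 1.07, SE 0.34, adjusted p = 0.023, edgeR), but its call ended without any 1 of the 6 libraries and with total-count scaling (edgeR adjusted p from 0.068 to 0.15). Without day 1 replicate 2, the log2 fold changes of miR-72-5p and miR-73-5p were 0.63 and 0.93 (edgeR adjusted p = 0.067 and 0.097). Of the 7 tested arms of the miR-44 family 1 was higher, miR-44-5p, and 1 lower, miR-61-5p (log2 fold change -0.90, SE 0.25, adjusted p = 0.011, edgeR), whose gene acts in Notch signalling in the vulva. *mir-61* and *mir-250* are neighbours on chromosome V, and 3 of their 4 tested arms were lower, among them both arms of *mir-250* (log2 fold change -1.26 for 5p and -0.70 for 3p). The call of miR-250-3p ended without day 7 replicate 1 (edgeR adjusted p = 0.058).

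Markers of neurons, muscle and the intestine had no call in edgeR, against 39.2% called over all microRNAs tested. Of 7 tested arms of neuronal microRNAs, among them lsy-6, which sets the left-right difference of a pair of taste neurons, none was called (log2 fold changes -0.07 to 0.72, median 0.14). The unadjusted p was below 0.05 for 2 of the 7, miR-790-3p and miR-791-3p, and DESeq2 called miR-791-3p (log2 fold change 0.76, adjusted p = 0.036). Its edgeR log2 fold change was 0.31 when day 1 replicate 2 was left out (adjusted p = 0.47), but 1.03 when day 1 replicate 3 was (adjusted p = 0.028). In the muscle and intestine lists, of 2 tested arms each, 0 had an unadjusted p below 0.05 and DESeq2 called 0. lsy-6 itself was at 5.62, 5.36 and 6.33 CPM in day 7 worms, against 5.76, 3.13 and 4.11 CPM in day 1 worms, with overlap (log2 fold change 0.38, SE 0.30, adjusted p = 0.34, edgeR). miR-1-3p, the muscle microRNA, was at 10438, 11739.7 and 8367 CPM in day 7 worms, against 12277, 12537 and 13480.4 CPM in day 1 worms. Its day 7 libraries were all below day 1, but the log2 fold change of -0.33 did not pass (SE 0.22, adjusted p = 0.25, edgeR). miR-60-3p, of the intestine, was at 268, 375 and 204 CPM in day 7 worms, against 453, 159 and 545 CPM in day 1 worms, with a wide spread at day 1 and overlap (log2 fold change -0.45, SE 0.43, adjusted p = 0.45, edgeR). Without day 1 replicate 2 it was at -0.99 on the log2 scale (edgeR adjusted p = 0.081). Among the germline and embryo markers, which are the same genes as the miR-35 family, 9 of 15 were higher, against 21.2% of all microRNAs tested. *mir-240* and *mir-786*, neighbours on chromosome X that are active in the somatic gonad and the gut, had 2 of 3 tested arms higher. miR-240-5p was at 321, 266 and 332 CPM in day 7 worms, against 67.4, 104 and 81.1 CPM in day 1 worms, far apart between ages (log2 fold change 1.86, SE 0.38, adjusted p = 0.0014, edgeR). miR-786-3p was at 946, 1053 and 921 CPM in day 7 worms, against 537, 559.9 and 641 CPM in day 1 worms (log2 fold change 0.75, SE 0.23, adjusted p = 0.017, edgeR), and its call ended with total-count scaling (0.65, edgeR adjusted p = 0.064) and without any 1 of 5 libraries. Without day 1 replicate 2, its log2 fold change was 0.55 (edgeR adjusted p = 0.12).

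The arms of a hairpin were then compared with each other, as the log2 ratio of the 5p to the 3p count in each library, which no scaling of the libraries can change. Of 82 hairpins with both arms tested, 8 changed their ratio in limma (9.76%), 4 toward 5p and 4 toward 3p, and 22 had an unadjusted p below 0.05. Both arms were called higher in 7 hairpins and lower in 7, 1 arm alone was called in 27, and in 0 hairpins were the arms called in opposite directions. In 55 of the 82, both arms had the same sign of change.

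*mir-788* shifted most toward 5p. Its log2 ratio was 1.08, 0.56 and 0.33 in day 7 worms, against -2.30, -2.55 and -2.35 in day 1 worms. The sign of the ratio thus differed between the ages in every library, with 5p the more counted arm at day 7 and 3p at day 1, and the difference was 3.06 (SE 0.46, adjusted p = 0.0015, limma). miR-788-5p, at 9.73, 9.12 and 7.65 CPM in day 7 worms, against 10.5, 11.7 and 12.3 CPM in day 1 worms, lay lower in every day 7 library but did not pass the test (log2 fold change -0.38, SE 0.27, adjusted p = 0.28, edgeR). In *mir-237*, where both arms fell, the ratio was 9.30, 9.72 and 8.61 in day 7 worms, against 7.22, 7.13 and 7.47 in day 1 worms. The ratio rose as the 3p arm fell further, with a difference of 1.94 (SE 0.38, adjusted p = 0.0053, limma), a call that a prior count of 5 ended (1.19, limma adjusted p = 0.053). *mir-44* had a ratio of -8.15, -8.12 and -7.61 in day 7 worms, against -9.54, -9.79 and -9.79 in day 1 worms, without overlap (difference 1.74, SE 0.37, adjusted p = 0.008, limma). The 3p counts of *mir-44* are the same as those of *mir-45* in every library, so this ratio may mix reads of both genes. For *mir-34*, where both arms rose, the ratio was 6.33, 6.38 and 5.98 in day 7 worms, against 5.03, 4.89 and 4.66 in day 1 worms. The 5p arm rose further (difference 1.37, SE 0.33, adjusted p = 0.016, limma).

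Toward 3p, 3 of the 4 hairpins were of the miR-35 family, which had 7 hairpins with both arms tested, against 9.76% changed over all 82. *mir-35*, *mir-39*, *mir-40* and *mir-42* of this family did not pass (differences -1.67, -1.66, -1.91 and -1.42, limma adjusted p = 0.18, 0.29, 0.080 and 0.086). Their ratios still lay lower in every day 7 library, and over all 82 hairpins the ages did not overlap in 28. *mir-36* had a ratio of -9.20, -9.03 and -9.29 in day 7 worms, against -6.70, -6.42 and -6.95 in day 1 worms. The ages were far apart (difference -2.49, SE 0.43, adjusted p = 0.0025, limma). The ratio of *mir-37* was -8.72, -8.81 and -8.87 in day 7 worms, against -6.85, -7.00 and -6.88 in day 1 worms, close together within each age (difference -1.89, SE 0.47, adjusted p = 0.018, limma). In *mir-41*, the one of these hairpins whose 5p arm is the more counted, it was 3.53, 2.50 and 2.93 in day 7 worms, against 5.17, 6.06 and 5.39 in day 1 worms. It did not overlap (difference -2.55, SE 0.69, adjusted p = 0.027, limma). *mir-246* was at -8.33, -8.61 and -8.13 in day 7 worms, against -5.80, -6.78 and -6.04 in day 1 worms (difference -2.15, SE 0.52, adjusted p = 0.016, limma). The calls of *mir-36*, *mir-44* and *mir-788* held under every alternative, and that of *mir-41* was lost without any 1 of the 6 libraries (limma adjusted p from 0.055 to 0.12). No alternative parted the 3p reads of *mir-44* from those of *mir-45*. The calls of *mir-37*, *mir-246* and *mir-34* were each lost without at least 3 single libraries (limma adjusted p from 0.055 to 0.073).

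**Figure D5:**
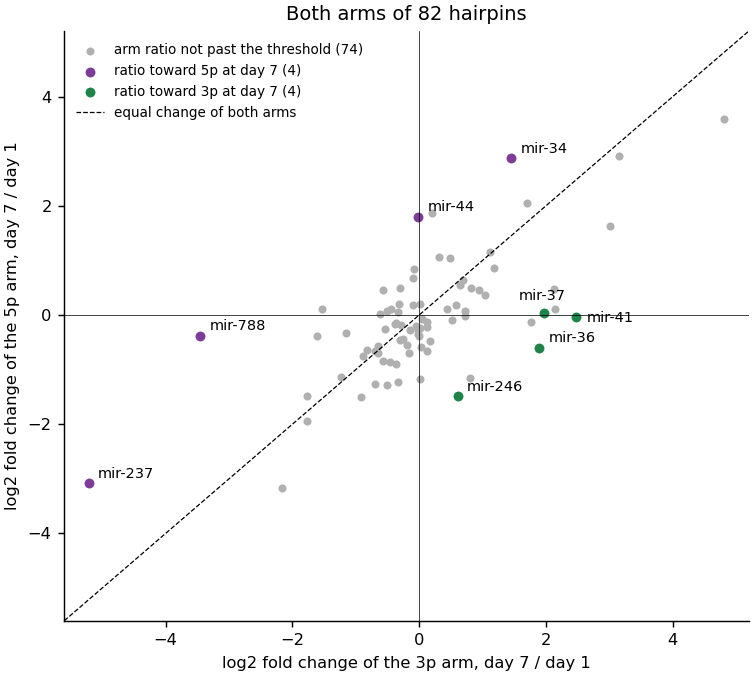
Log2 fold change of day 7 over day 1 of the 5p arm (y axis) against that of the 3p arm (x axis), 1 point per hairpin, with the dashed line where both arms change equally. The 8 hairpins with a changed arm ratio are named, *mir-788*, *mir-237*, *mir-44* and *mir-34* above the line and *mir-36*, *mir-37*, *mir-41* and *mir-246* below it.

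Over all 82 hairpins, the scarcer arm lost ground to the other at day 7 in 47 and gained in 35, with a median log2 difference of -0.13. The median log2 ratio of the less to the more abundant arm was -5.73, -5.69 and -5.77 in the day 7 libraries, against -5.16, -5.29 and -5.58 in the day 1 libraries. All 3 day 7 libraries lay below day 1, with a mean difference of -0.384 (exact permutation p = 0.1, the lower limit here). The 10 most abundant microRNAs of each age took 63.1%, 61.9% and 62.0% of the counts in day 7 libraries, against 63.4%, 71.1% and 62.5% in day 1 libraries. The ages overlapped (difference of the means -3.35 percentage points, exact permutation p = 0.2, two-sided), and without day 1 replicate 2 the difference was -0.627 percentage points (exact permutation p = 0.4). miR-70-3p ranked 2nd at day 7 and 1st at day 1, at 114894, 81765 and 87322 CPM in day 7 worms, against 80064, 160980.5 and 82409 CPM in day 1 worms, with overlap and no call (log2 fold change -0.19, SE 0.45, adjusted p = 0.8, edgeR). miR-77-3p entered the 10 most abundant at day 7. It was at 25453, 31476 and 20623 CPM in day 7 worms, against 16008, 8672 and 19602 CPM in day 1 worms, with every day 7 library above day 1 and a change that narrowly missed the threshold (log2 fold change 0.81, SE 0.32, adjusted p = 0.056, edgeR). It was called with RLE size factors (0.84, edgeR adjusted p = 0.042) and by DESeq2 (0.84, adjusted p = 0.029), but its log2 fold change was 0.37 without day 1 replicate 2 (edgeR adjusted p = 0.38).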

How the data were processed

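The authors prepared the small RNA libraries with standard Illumina protocols, aligned the reads with TopHat and assigned them to known microRNAs with miRDeep, with tool versions not given in the sources used here. The values analysed are the whole counts per mature microRNA and library that the authors deposited. The deposited comparisons between ages, which hold fold changes and p-values from DESeq, were not used. Of 375 lines naming a microRNA, the one with the largest total stood for each of the 7 mature names on several lines. One fit of all 12 libraries in edgeR 4.0.16 (R 4.3.3) used filterByExpr by age (minimum count 10), TMM, age as the only term and 8 residual degrees of freedom. Arm ratios used limma 3.58.1 with a prior count of 1, and 212 of 218 hairpins were placed in WBcel235 by name. That build differs from the one the authors aligned to, so its coordinates serve for position only. Reads without molecular identifiers make counting intervals cover counting error only. Members and all 27 lists were chosen with earlier results of these data known. Named are the 15 largest changes in each direction among called microRNAs without overlap, the 10 most abundant at each age, the arms of up to 6 hairpins per direction with a changed arm ratio, all arms of *mir-83* and of 10 lists, and up to 4 of each other list with the smallest adjusted p. Replicates are the authors' biological replicates. Mature sequences other than that of the *mir-83* mimic, which is from the study's oligo list, are not shown here.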

Additional observations from a re-analysis of the deposited data

How the results depend on the processing

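With 3 libraries an age, only large or tight changes pass. Over the other scalings, filters, tools, fits and left-out libraries, 71 (at least 10 counts in every library, with 182 tested) to 111 (DESeq2) microRNAs were called, and every call shared with the 96 kept its direction. With only day 7 and day 1 in the filter and the fit, 233 microRNAs were tested, 91 of the 96 among them, and 103 were called. Of the 72 named microRNAs that were called, 53 stayed called under every alternative that tested them, and none reversed. With 1 library left out, the count was lowest for day 7 replicate 1 (75) and highest for day 1 replicate 2 (100). Same-numbered libraries had correlations of -0.34, -0.46 and -0.24 in their deviations from the age means. With 3 libraries an age these values cannot settle whether the replicate numbers pair the samples. The main fit took the libraries as unpaired, and a fit with a replicate block gave 91 calls, 90 of them among the 96, and 7 changed arm ratios. That block ended the calls of miR-47-5p, miR-71-3p and miR-228-5p (edgeR adjusted p = 0.073, 0.071 and 0.066) and of the *mir-41* ratio (limma adjusted p = 0.059). The count of changed arm ratios was 15 of 82 with only day 7 and day 1 in the fit, 11 of 45 where the scarcer arm had at least 100 counts, 9 with a prior count of 5, and 4 to 9 with 1 library left out. Where the scarcer arm had at least 100 counts, the shift of the median arm ratio was -0.69. The cause of these moves was not tested, other than that fewer hairpins or libraries entered. MicroRNAs with few counts at day 1 are limited by depth, and for those with at most 3 over the day 1 libraries a ratio against 3 counts or an interval is given.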

Other observations

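Calls also fell in smaller seed groups, against 39.2% called over all microRNAs. Of the 6 tested arms of the miR-2 family, 1 was higher (miR-43-3p) and 2 were lower, both of *mir-250*. The miR-50 family had 1 of 5 lower, miR-50-5p, at 2769.5, 2089 and 2534 CPM in day 7 worms, against 3059, 5481 and 3409 CPM in day 1 worms (log2 fold change -0.69, SE 0.23, adjusted p = 0.029, edgeR), and the miR-86 family 1 of 3, miR-785, at 42.1, 52.8 and 42.1 CPM in day 7 worms, against 84.5, 85.8 and 99.00 CPM in day 1 worms (log2 fold change -0.98, SE 0.22, adjusted p = 0.0023, edgeR). Both lay lower in every day 7 library. The miR-232 family had 1 of 3 lower, miR-357-3p. Its other tested arms, miR-232-5p and miR-232-3p, lay higher in every day 7 library without a call (log2 fold changes 0.55 and 0.65, edgeR adjusted p = 0.083 and 0.25). DESeq2 called miR-232-5p higher (0.57, adjusted p = 0.041) and miR-86-3p of the miR-86 family lower (-0.83, adjusted p = 0.041). Without day 1 replicate 2, the log2 fold changes of these 2 were 0.31 and -0.60 (edgeR adjusted p = 0.40 and 0.097). edgeR called none among 4 arms of the miR-75 family (median -0.37), 3 of the miR-251 family (median -0.46) and 4 of the miR-87 family (median -0.07). Unadjusted p was below 0.05 for 2, 1 and 0 arms of these 3 families, and DESeq2 called 1 arm, miR-79-3p of the miR-75 family (log2 fold change -0.67, adjusted p = 0.041). Without day 1 replicate 2, edgeR called miR-79-3p, miR-79-5p, miR-251 and miR-252-5p lower (log2 fold changes -0.98, -0.93, -0.90 and -0.90), and miR-86-5p of the miR-86 family (-1.14).

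MicroRNAs of unusual genes moved too. Mirtrons are made from a spliced-out intron in place of a Drosha cut. Of 3 tested from the list of mirtrons, miR-1020-3p was lower, at 6.03, 6.61 and 5.14 CPM in day 7 worms, against 12.9, 15.05 and 17.4 CPM in day 1 worms (log2 fold change -1.35, SE 0.37, adjusted p = 0.011, edgeR), while miR-62 and miR-1018 had log2 fold changes of -0.33 and 1.12 and did not pass. Unlike *mir-62* and *mir-1020*, *mir-1018* lies inside no annotated protein-coding gene of WBcel235, so its place in this list is uncertain. In the group of *mir-2208* and *mir-2209* genes on chromosome IV, 1 of 5 tested arms was higher (miR-2208a-5p), the median was 0.77, and miR-2209a-3p narrowly missed the threshold (log2 fold change 0.92, SE 0.36, adjusted p = 0.054, edgeR; 0.98 without day 1 replicate 2, past the test). On chromosome X, a run of 9 hairpins between 1872466 and 1880038 on the plus strand, which holds *mir-1018* and *mir-2220*, had 3 of 6 tested arms higher and 0 lower. Of 64 microRNAs inside a gene on the same strand, 9 were higher and 8 lower, against 35 higher and 29 lower of 147 outside genes. Over all microRNAs tested, 21.2% were higher and 18.0% lower. The 24 called microRNAs that go unnamed here were 15 higher and 9 lower, with log2 fold changes from -1.49 to 2.91.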
